A study of Homo sapiens with 12 samples.

Results

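The unfolded protein response and the integrated stress response were followed through 34 genes of THP1 monocytes, taken as a named list from the 58735 rows of the count table. By role they comprised 15 chaperones and folding enzymes of the endoplasmic reticulum (ER), 4 genes of ER-associated degradation, 10 targets of the transcription factor ATF4, and 5 sensors and transcription factors. All 34 were among the 25873 genes with at least 10 counts in total and were tested. Chaperones and ATF4 targets are described apart.

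RNA-sequencing covered wild-type THP1 cells, an established human monocytic leukemia line, in 4 groups of 3 libraries. THP1 cells were kept for 24 h in endothelial cell medium, either in mono-culture or in the upper chamber of a transwell insert with 1 µm pores above human umbilical vein endothelial cells (ECs). The ECs below were control ECs, senescent ECs (senECs) made with 10 µM etoposide, a drug that damages DNA, or senECs that also received 100 µM EGCG, a green tea catechin. Cells of all 4 groups were then removed and given LPS at 100 ng/ml over 2 h, so that no library shows the genes without LPS. In the labels the libraries of mono-culture and of control ECs carry the numbers 1, 2 and 3, those of both senEC groups carry 1, 2 and 5, and what a number stands for is not said. Nothing in the labels ties a library to a separate culture, so that p-values measure the spread between these libraries, which may be technical. Drug-induced senescence in 1 type of EC and a leukemia line in place of blood monocytes limit the groups as models.

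When misfolded proteins build up in the ER, the sensors IRE1 (ERN1), PERK (EIF2AK3) and ATF6 start the unfolded protein response. IRE1 splices the mRNA of XBP1 and ATF6 is cut to its active form, and both then raise chaperones and degradation factors, while PERK phosphorylates the translation factor eIF2. Other kinases phosphorylate eIF2 as well when amino acids run short or viral RNA is present, and the resulting integrated stress response favours the translation of ATF4, which drives amino acid synthesis and uptake, CHOP (DDIT3) and the phosphatase subunit GADD34 (PPP1R15A). Splicing of XBP1, cutting of ATF6 and translation of ATF4 do not show in counts per gene, which measure the amount of mRNA alone. In monocytes and macrophages these pathways are known to meet LPS signalling, which engages IRE1 and XBP1.

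Library totals ranged from 15439836 to 22092600 counts, and the smallest library leaves room for up to 0.194 CPM (counts per 1000000, scaled to TMM library sizes) behind a count of 0, counting error only. All 12 monocytic markers checked were above 1 CPM in every library. Of 20 endothelial markers, SOX17 and MMRN1 were at 0 in all 12 libraries, CDH5 did not exceed 0.0635 CPM, and 3 were above 1 CPM in every library. PECAM1 and EGFL7, which monocytic cells also express, made up most of the endothelial sum of 159 to 247 CPM. Without both genes it was 8.02 to 10.6 CPM in mono-culture, 7.48 to 14.0 CPM with control ECs, 7.69 to 8.98 CPM with senECs and 8.16 to 11.8 CPM with EGCG-treated senECs, ranges that overlapped between libraries with and without ECs. The sum of the monocytic markers differed with the library number, from 2321 to 2583 CPM in the libraries numbered 1, from 2495 to 2879 CPM in those numbered 2 and from 2932 to 3828 CPM in those numbered 3 or 5.

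Per transcript length, the leading ER chaperones were the most abundant of the 34 genes. The ATF4 targets ranked lower than these, and the lower chaperones, such as MANF and DNAJB9, lay within the range of the ATF4 targets. CALR (calreticulin, a lectin chaperone of glycoproteins) led with a mean level of 525 FPKM (CPM per kilobase of exon) over the 12 libraries. Next came HSPA5 (BiP, the main Hsp70 of the ER) at 427 FPKM, HSP90B1 (GRP94, the Hsp90 of the ER) at 406 FPKM, P4HB (protein disulfide isomerase) at 297 FPKM and CANX (calnexin) at 209 FPKM. ATF4 itself was at 156 FPKM and XBP1 at 84.1 FPKM. Of the ATF4 targets, SLC7A5, the light chain of the amino acid transporter LAT1, was the highest at 43.1 FPKM. The sensors were low, with ATF6 at 14.3 FPKM, EIF2AK3 at 4.42 FPKM and ERN1 at 2.51 FPKM. Only ASNS, asparagine synthetase, had a mean below 1 FPKM, at 0.133 FPKM, with 4 to 23 counts per library, and its fold changes carry standard errors of 0.45 to 0.61 on the log2 scale. Levels of genes with processed pseudogenes, such as HSP90B1, ATF4 and PSAT1, are uncertain, since the treatment of reads shared between copies is not given in the sources used here.

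**Figure D1:**
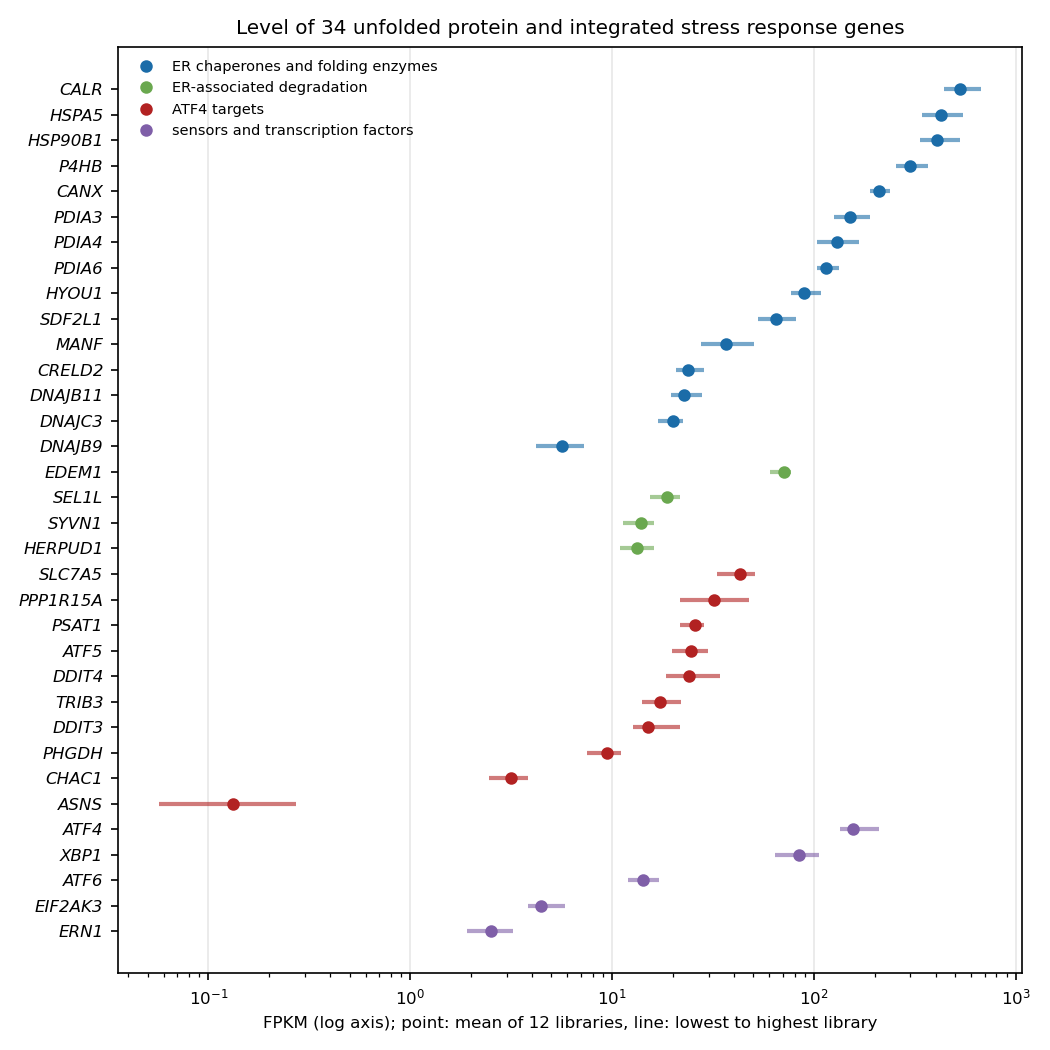
Level of each of the 34 genes in FPKM on a log axis, ordered by role and level; the point is the mean of the 12 libraries and the line runs from the lowest to the highest library. Chaperones reach from 5.61 FPKM (DNAJB9) to 525 FPKM (CALR), and ASNS lies apart from the other 33 genes below 1 FPKM.

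Windows of 300 bases from 250 bases before the start, taken from RefSeq on GRCh38.p14, were found for 33 of the 34 genes (46 windows in all; PDIA3 had none). They were searched on both strands for the ER stress response element (ERSE: CCAAT, 9 bases of any kind, CCACG), which is bound by ATF6 together with NF-Y, for its shorter form ERSE-II (ATTGG, 1 base, CCACG), for the C/EBP-ATF response element (CARE: TGATGNAA), through which ATF4 acts, and for the cAMP response element (CRE: TGACGTCA). The ERSE letters were present for 7 of the 33 genes (CALR, CANX, CRELD2, HSP90B1, HSPA5, PDIA6 and XBP1) and for 0.0916% of the 27305 genes with a window. Of the 14 chaperones with a window 6 held them, and of the 10 ATF4 targets 0 did. ERSE-II was present for HERPUD1, HYOU1 and SDF2L1 and for 0.0696% of all genes. The CARE letters were present for ASNS, CHAC1 and HERPUD1 and for 4.46% of all genes, and the CRE letters for PPP1R15A and for 2.25% of all genes. A match describes the letters only and says nothing of binding in these cells.

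The stretches below show these elements for genes to which the results return. They read 5′ to 3′ on the strand of the gene, with 20 bases on either side of the outermost match and the fixed bases of the elements in capitals. An ERSE on the opposite strand reads CGTGG, 9 bases, ATTGG. HSPA5 lies at chr9:125241371-125241429 on the minus strand, 86 to 28 bases before the start, and HSP90B1 at chr12:103930196-103930359 on the plus strand, where 2 copies face opposite ways. CALR is at chr19:12938364-12938422, CRELD2, an ER-resident folding factor, at chr22:49918534-49918592 and XBP1 at chr22:28800583-28800641 on the minus strand. HERPUD1, at chr16:56931946-56932055, has a CARE on the opposite strand followed by an ERSE-II, and PPP1R15A, at chr19:48872343-48872390, has a CRE.
HSPA5: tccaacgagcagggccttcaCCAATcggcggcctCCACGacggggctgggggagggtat
HSP90B1: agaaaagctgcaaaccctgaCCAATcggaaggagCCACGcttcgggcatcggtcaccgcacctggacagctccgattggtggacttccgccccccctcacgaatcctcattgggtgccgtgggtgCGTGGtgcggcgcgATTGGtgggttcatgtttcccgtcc
CALR: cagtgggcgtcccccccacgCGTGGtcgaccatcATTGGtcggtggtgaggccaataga
CRELD2: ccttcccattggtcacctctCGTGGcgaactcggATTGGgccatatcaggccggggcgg
XBP1: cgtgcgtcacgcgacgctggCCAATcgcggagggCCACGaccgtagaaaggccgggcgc
HERPUD1: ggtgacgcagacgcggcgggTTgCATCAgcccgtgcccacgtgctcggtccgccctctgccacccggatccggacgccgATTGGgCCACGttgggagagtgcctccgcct
PPP1R15A: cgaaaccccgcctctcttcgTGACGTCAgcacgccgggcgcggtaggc

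Which of the genes differed between cultures was asked first. With the culture as the only term of the model, none of the 34 passed edgeR's quasi-likelihood test at an adjusted p of 0.05 in any of the 7 comparisons. This model leaves the differences between library numbers, described below, in its error. With the number as a block, edgeR called 0 of the 34 with senECs against mono-culture (709 of all 25873 genes). With the numbers 3 and 5 joined in the block, which the labels do not do, it called 4 of the 34 (1407 of all genes). For senECs against control ECs that setting called 0 of the 34 and 268 of all genes. Against mono-culture the share of all genes called was 0.143% with control ECs, 0.309% with senECs, 0.213% with EGCG-treated senECs and 0.723% with all co-cultures together. At an unadjusted p of 0.05 the 34 genes gave 2 with control ECs (6.52% of all genes), 6 with senECs (11% of all genes), 1 with EGCG-treated senECs (8.58%) and 2 with all co-cultures (10.7%). The count with senECs lay above the share of all genes and that with EGCG-treated senECs below it, which was not tested. In the model of culture alone, edgeR and DESeq2 called 0 of all genes (0%) in each comparison among the co-cultures. There 2 of the 34 had an unadjusted edgeR p under 0.05 for senECs against control ECs (6.61% of all genes), 0 when EGCG-treated senECs were set against senECs (2.22%) or against control ECs (4.55%). By DESeq2 only SLC7A5 was called, with EGCG-treated senECs (0.873% of all genes called) and with all co-cultures together (1.7%). In bulk RNA, fewer cells that express a gene and less RNA per cell cannot be told apart.

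The fold changes were small in either direction. Leaving ASNS aside, they ran from -0.38 (DDIT4, control ECs against mono-culture) to 0.42 (SLC7A5, EGCG-treated senECs against mono-culture) on the log2 scale. Against mono-culture the median of the 15 chaperones was -0.02 (control ECs), 0.13 (senECs) and 0.05 (EGCG-treated senECs), beside 0.01, -0.02 and 0.00 over all genes. For the 10 ATF4 targets it was -0.03, 0.19 and 0.11 in the same order, and for the 4 genes of ER-associated degradation -0.08, -0.18 and -0.13. The 5 sensors and transcription factors gave 0.00, 0.09 and 0.03. Between co-cultures, the median of the chaperones was 0.14 when senECs were set against control ECs and -0.05 when EGCG-treated senECs were set against senECs, and that of the ATF4 targets was 0.17 and -0.02. These comparisons share libraries, and the medians carry no test. The size of the shift can be set against the spread of the libraries. Within cultures, the mean deviation of the 15 chaperones had a pooled SD of 0.18 on the log2 scale, larger than each chaperone median. That of the 10 ATF4 targets had a pooled SD of 0.09, beside medians of 0.19, 0.17 and 0.11. Their mean deviations were -0.08, 0.04 and 0.23 with senECs (numbers 1, 2 and 5) and 0.04, 0.03 and 0.04 with EGCG-treated senECs. The pooled SD thus understates the spread within senECs. A median of fold changes is also not a mean deviation, so the shift cannot be said to exceed the spread. Without the senEC library numbered 5 the median of the ATF4 targets was 0.05 for senECs against mono-culture and 0.02 against control ECs, and without the senEC library numbered 1 it was 0.28 and 0.23.

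**Figure D2:**
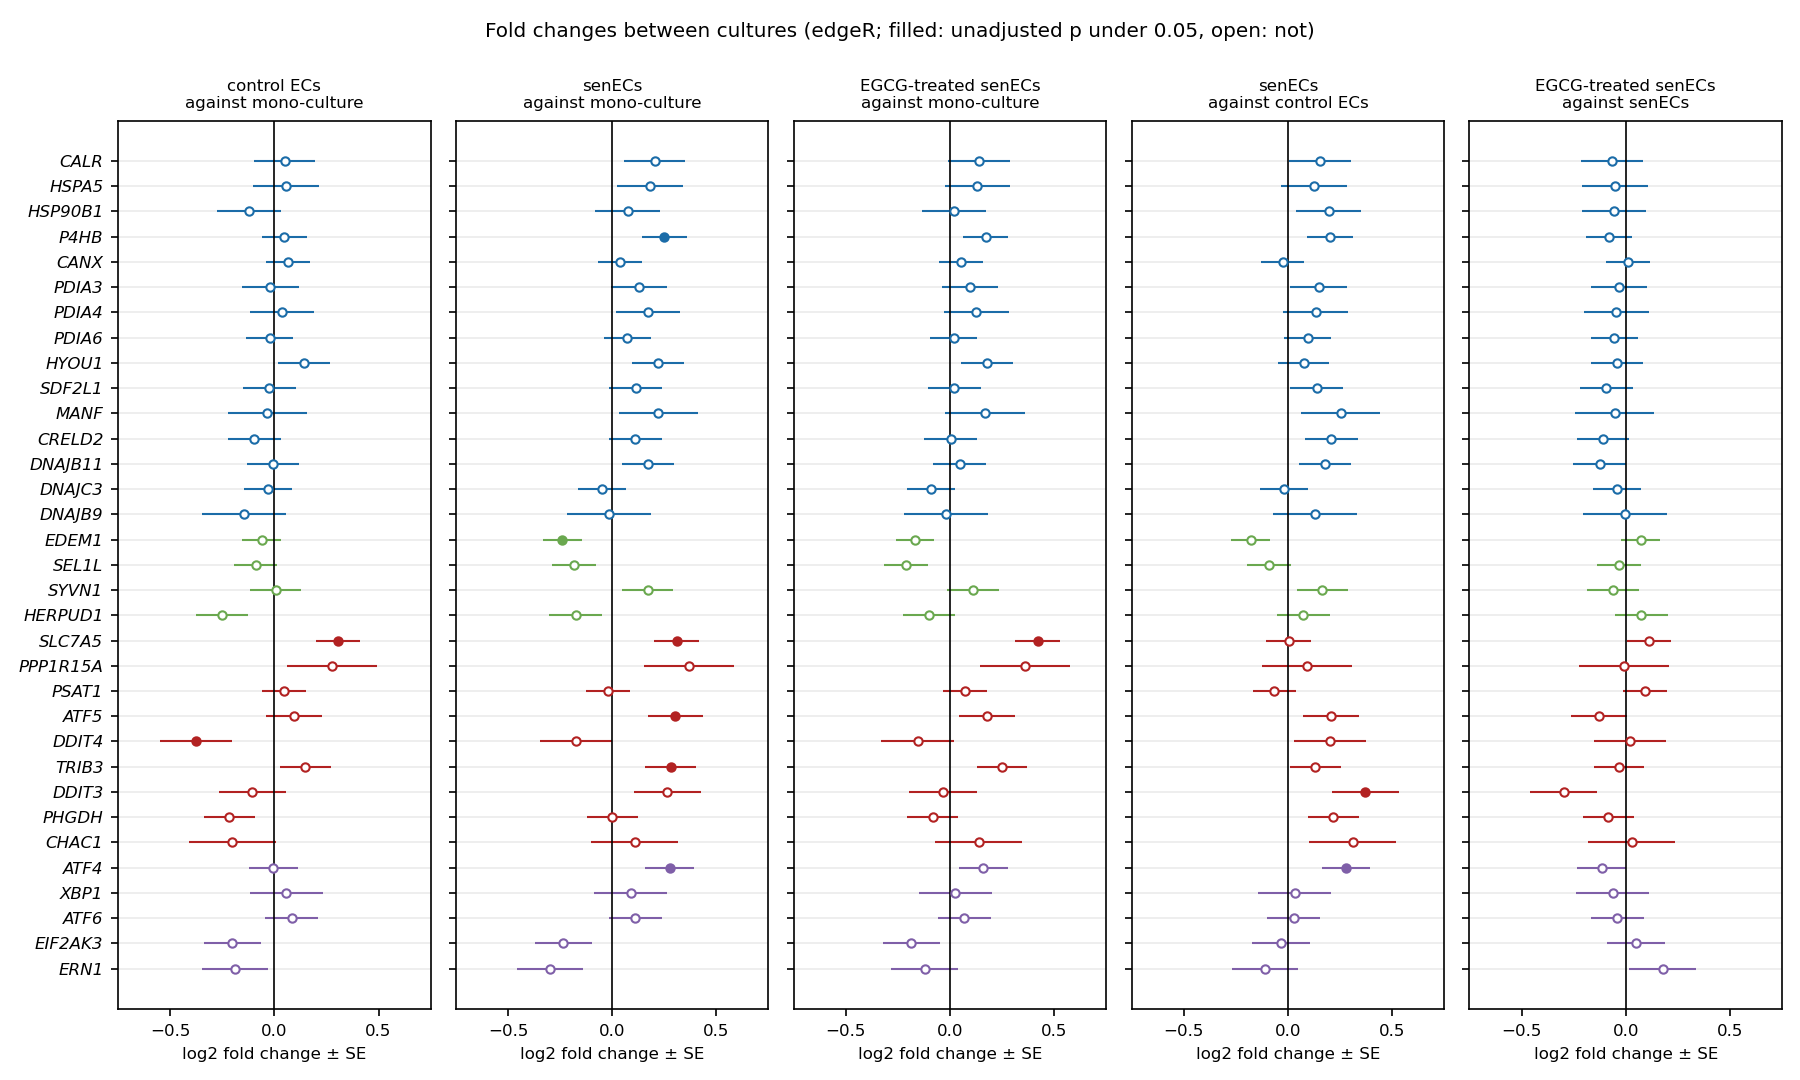
Log2 fold changes with standard errors (edgeR, 12 libraries in 1 model) of 33 genes, coloured by role, in 5 comparisons; ASNS is left out for its low counts. Filled points have an unadjusted p under 0.05, and none has an adjusted p under 0.05.

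A larger part of the variation of these genes went with the library number than with the culture. In a model of culture and library number, 16 of the 34 genes (47.1%) differed between numbers by edgeR's test at an adjusted p of 0.05, against 9.61% of all genes. Genes with a mean of at least 10 CPM, which are better measured, were called in 19.7%. The unadjusted p was under 0.05 for 26 of the 34 genes and for 18.2% of all genes, and DESeq2 called 18 of the 34 and 6.6% of all genes. By role, edgeR called 8 of 15 chaperones, 2 of 4 genes of ER-associated degradation, 4 of 10 ATF4 targets, and 2 of 5 sensors and transcription factors. The number of genes called ranged from 10 without the control EC library numbered 1 to 26 without the EGCG-treated senEC library numbered 5. Of the 16 genes, 9 were called under all 17 alternative settings, namely HSPA5, HSP90B1, CALR, PDIA3, PDIA4, MANF, DDIT4, PPP1R15A and XBP1. What the numbers stand for is not given, so a difference between them cannot be assigned to a step of the experiment.

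Splitting the sum of squares of log2(CPM + 2) over the 12 libraries, with the numbers 3 and 5 taken as 1 level, the library number held a median share of 69.4% for the 15 chaperones and the culture 10.1%. The medians over all genes were 20.5% and 26.8%, and over genes with a mean of at least 10 CPM 27.8% and 29.8%. For the ATF4 targets the number held 40.1% and the culture 29.5%, for the sensors and transcription factors 50.9% and 24.1%, and for ER-associated degradation 40.4% and 36.3%. The share of the number was above that of the culture in 26 of the 34 genes, among them 14 of 15 chaperones. XBP1 had the highest share of the number, 96.5%, with 1.77% for the culture. EDEM1 and SLC7A5 had the highest shares of the culture, 70.7% and 69.7%.

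**Figure D3:**
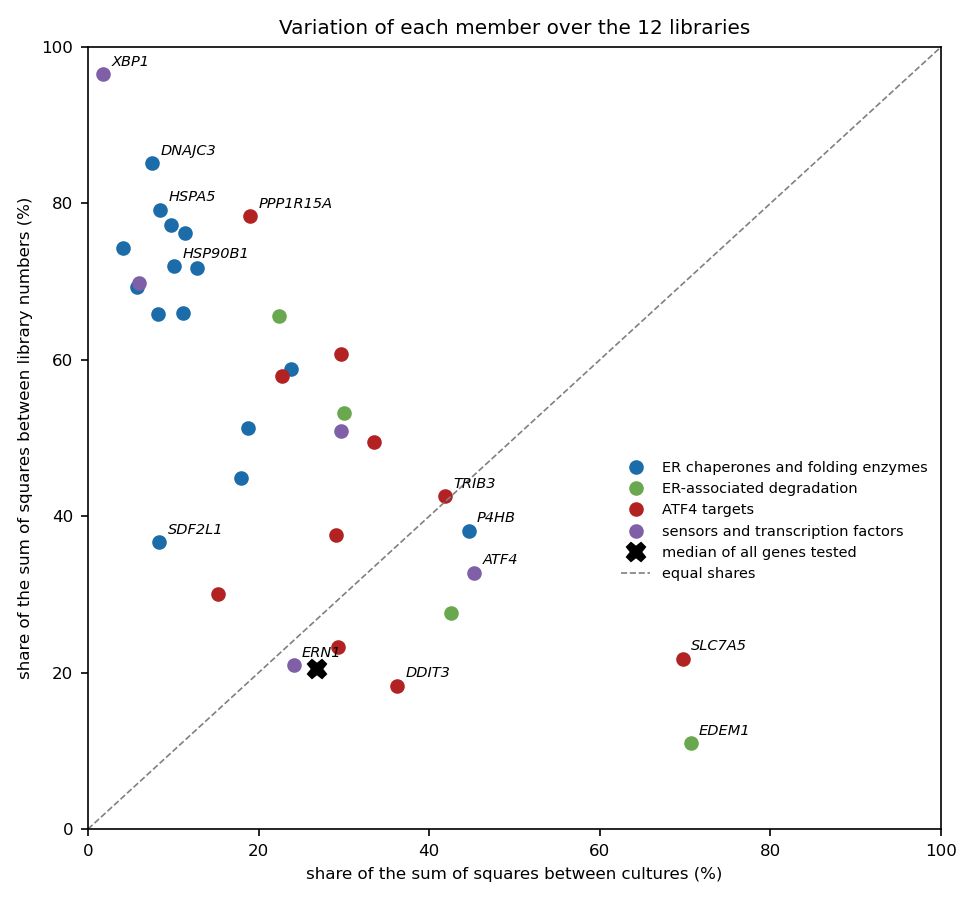
Share of the sum of squares of log2(CPM + 2) between the 4 cultures (x axis, %) and between the library numbers (y axis, %) for each of the 34 genes, coloured by role. The cross is the median of all genes tested (26.8% and 20.5%), and points above the dashed line, 26 of 34, varied more with the number than with the culture.

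The numbers did not order the genes in 1 way. In all 4 cultures, 11 of the 34 genes were highest in the library numbered 2 (2.05% of all genes), 9 of them chaperones and 2 of them genes of ER-associated degradation. A further 5 were highest in the library numbered 3 or 5 (4.35% of all genes): XBP1, ATF6, PPP1R15A, DDIT4 and TRIB3. In 10 genes the library numbered 1 was the lowest in all 4 cultures (5.41% of all genes). Of the 12 monocytic markers, 2 are given as examples. LYZ (lysozyme) lay between 122 and 152 CPM in the libraries numbered 2 and between 67.5 and 95.4 CPM in the other 8. FCER1G lay between 178 and 265 CPM in those numbered 3 or 5 and between 99.8 and 143 CPM in the others. The remaining markers are not given singly. Unlike LYZ, the sum of the 12 was highest in the libraries numbered 3 or 5 (2932 to 3828 CPM, beside 2495 to 2879 CPM in number 2). The part of these markers in the pattern was not tested.

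**Figure D4:**
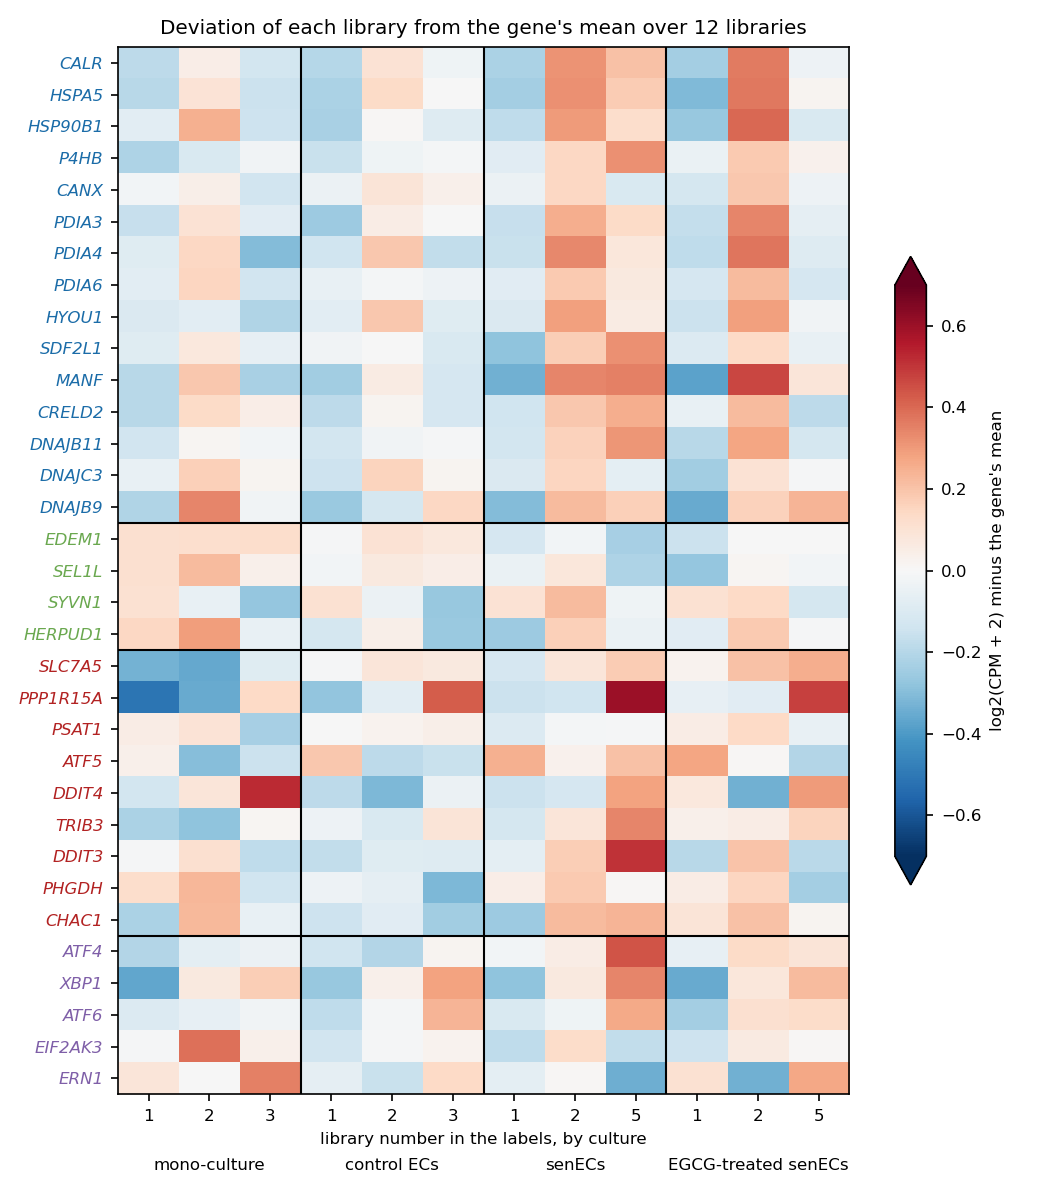
Deviation of log2(CPM + 2) in each of the 12 libraries from the gene's mean over all libraries, for 33 genes (rows, grouped by role and ordered by FPKM) and the 4 cultures (columns, with the library number). Chaperones are mostly above their mean in the libraries numbered 2 and below it in those numbered 1, while PPP1R15A and XBP1 are above it in those numbered 3 or 5.

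HSPA5, HSP90B1 and CALR, the 3 chaperones with the highest levels per length, all differed over the numbers. Values of each culture are given here in the order of its library numbers (1, 2 and 3 or 1, 2 and 5). HSPA5 stood at 1441, 1760 and 1484 CPM in mono-culture, 1411, 1812 and 1648 CPM with control ECs, 1395, 2056 and 1868 CPM with senECs and 1330, 2133 and 1670 CPM with EGCG-treated senECs. The libraries numbered 1 were the lowest and those numbered 2 the highest in each culture, and the 4 cultures overlapped. The difference of number 2 from number 1 was 0.47 ± 0.07 (SE) on the log2 scale (adjusted p over the numbers 2.92e-07, edgeR). The difference of senECs from mono-culture was 0.18 ± 0.16 (adjusted p = 0.73, edgeR). Here and below, differences between numbers come from the model of culture and number, and those between cultures from the model of culture alone. The error of the latter includes the variation between numbers, so the 2 kinds of standard error and p-value are not alike.

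HSP90B1, which folds integrins and Toll-like receptors, stood at 1793, 2238 and 1707 CPM in mono-culture, 1609, 1899 and 1768 CPM with control ECs, 1667, 2318 and 2055 CPM with senECs and 1568, 2490 and 1752 CPM with EGCG-treated senECs. CALR stood at 1242, 1455 and 1291 CPM, 1229, 1513 and 1383 CPM, 1210, 1754 and 1629 CPM, and 1196, 1817 and 1376 CPM in the same order of cultures. Both were highest in the libraries numbered 2 of every culture, by 0.43 ± 0.07 and 0.42 ± 0.07 on the log2 scale over those numbered 1 (adjusted p 3e-06 and 2.04e-05, edgeR). Within a culture the highest library of HSPA5 exceeded the lowest by 1.22 to 1.60 times, while the highest of the 4 culture means exceeded the lowest by 1.14 times. Means of 3 libraries vary less than single libraries, so these 2 ratios of HSPA5 are not alike.

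**Figure D5:**
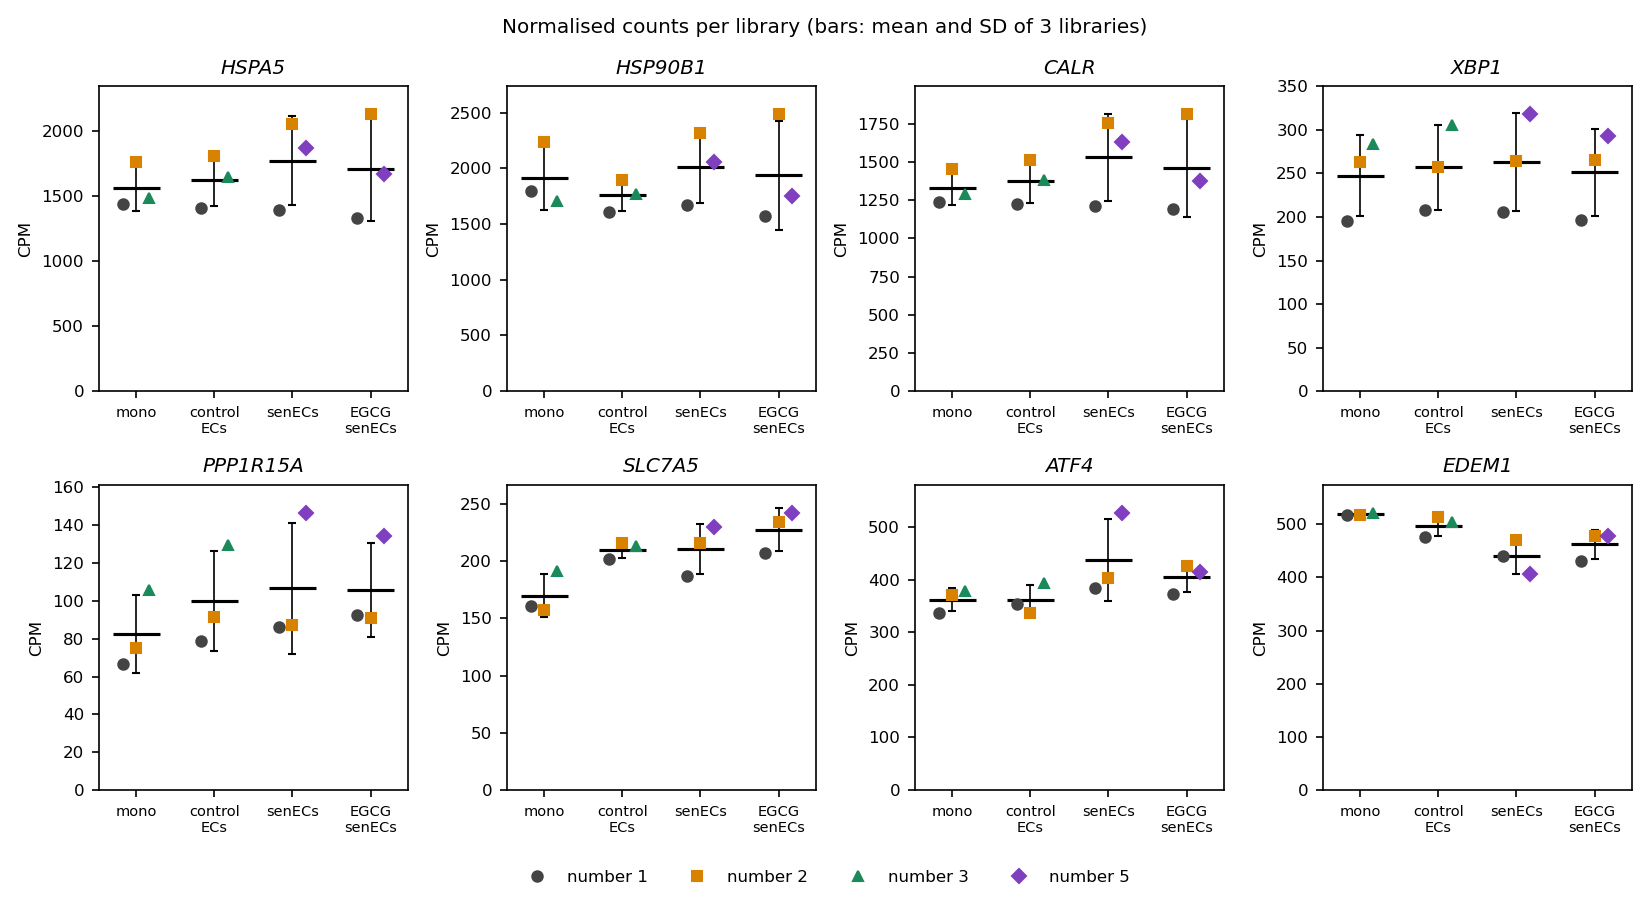
CPM in each library (symbols by library number) with the mean and SD of the 3 libraries of each culture, for HSPA5, HSP90B1, CALR, XBP1, PPP1R15A, SLC7A5, ATF4 and EDEM1; each axis starts at 0. The libraries numbered 2 are the highest for the first 3 genes and those numbered 3 or 5 for XBP1 and PPP1R15A, while SLC7A5 is at most 192 CPM in mono-culture and at least 187 CPM in the co-cultures.

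The thiol oxidoreductases PDIA3 and PDIA4 followed the same order. PDIA3, the partner of calnexin and calreticulin, stood at 566, 679.6 and 599 CPM in mono-culture, 531, 657 and 632 CPM with control ECs, 566, 756 and 695 CPM with senECs and 564, 802 and 607 CPM with EGCG-treated senECs. PDIA4 stood at 395, 463 and 339.7 CPM, 380.2, 477 and 372 CPM, 376, 528 and 443 CPM, and 369, 545 and 393 CPM. Their differences of number 2 from number 1 were 0.37 ± 0.08 and 0.40 ± 0.08 (adjusted p 0.000429 and 1.91e-06, edgeR), and no culture comparison of either gave an unadjusted p under 0.05. PDIA6, a further isomerase, ranged from 425 to 543 CPM and was highest in number 2 in every culture, but its adjusted p over the numbers was 0.131, and that of DESeq2 0.0445. P4HB differed: it stood at 1349, 1453 and 1540 CPM in mono-culture, 1406, 1535 and 1549 CPM with control ECs, 1481, 1733 and 1953 CPM with senECs and 1514, 1776 and 1597 CPM with EGCG-treated senECs. With senECs the P4HB mean was 1722 ± 236 CPM (SD, n = 3) against 1447 ± 95.8 CPM in mono-culture, a log2 difference of 0.25 ± 0.11 with an unadjusted p of 0.0334 and an adjusted p of 0.411 by edgeR, and the values of both groups overlapped.

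MANF, DNAJB9 and HYOU1 also passed over the numbers. MANF, a secreted neurotrophic factor that binds BiP, stood at 75.0, 98.2 and 73.4 CPM in mono-culture, 72.4, 89.5 and 79.1 CPM with control ECs, 67.7, 109 and 111 CPM with senECs and 65.9, 119.7 and 91.5 CPM with EGCG-treated senECs. The library numbered 1 of each EC co-culture was thus the lowest, and number 2 lay above number 1 by 0.56 ± 0.08 on the log2 scale (adjusted p over the numbers 6.23e-09, edgeR). DNAJB9 (ERdj4, a BiP cochaperone that restrains IRE1) stood at 13.3, 20.5 and 15.4 CPM, 12.8, 14.2 and 17.6 CPM, 12.3, 18.6 and 17.8 CPM, and 11.9, 17.8 and 18.9 CPM. Its lowest library was number 1 in each culture (adjusted p over the numbers 0.00203). HYOU1 (GRP170, which releases nucleotide from BiP) stood at 637, 650.0 and 591 CPM in mono-culture, 648, 779 and 645 CPM with control ECs, 638, 835 and 711 CPM with senECs and 616, 835 and 672 CPM with EGCG-treated senECs. HYOU1 passed over the numbers with an adjusted p of 0.012, and its difference of senECs from mono-culture was 0.22 ± 0.12 (adjusted p = 0.55, edgeR).

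The remaining chaperones did not pass over the numbers by edgeR. CANX ranged from 1181 to 1481 CPM and DNAJC3 (P58IPK, a cochaperone that also holds back PERK) from 93.9 to 125 CPM, both highest in number 2 of every culture, with adjusted p of 0.265 and 0.055. DESeq2 called DNAJC3 over the numbers (adjusted p = 0.013) but not CANX (0.0909). DNAJB11 (ERdj3) ranged from 113 to 160.2 CPM, CRELD2 from 107 to 146 CPM and SDF2L1, a partner of ERdj3, from 58.2 to 89.0 CPM, with adjusted p from 0.0503 (CRELD2) to 0.162 (SDF2L1). None of these 5 had an unadjusted p under 0.05 in a culture comparison. The 6 chaperones with ERSE letters included CALR, HSP90B1 and HSPA5, which differed over the numbers, and CANX, CRELD2 and PDIA6, which did not pass by edgeR.

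ER-associated degradation draws misfolded proteins back to the cytosol for the proteasome, and its 4 genes did not move together. HERPUD1, a membrane protein that recruits the ligase complex, stood at 75.0, 83.3 and 65.3 CPM in mono-culture, 62.0, 69.6 and 56.2 CPM with control ECs, 56.4, 76.1 and 65.4 CPM with senECs and 64.1, 77.2 and 67.2 CPM with EGCG-treated senECs. It was highest in number 2 of every culture (adjusted p over the numbers 0.0228, edgeR). SYVN1, the ubiquitin ligase HRD1, was instead lowest in the library numbered 3 or 5 of each culture, at 81.4, 72.8 and 62.1 CPM, 81.5, 73.3 and 62.4 CPM, 81.2, 88.3 and 74.0 CPM, and 81.3, 83.3 and 69.0 CPM. Its adjusted p over the numbers was 0.0319.

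EDEM1, which trims mannose from glycoproteins bound for degradation, was the ER-associated degradation gene with the highest level per length (71.0 FPKM; chr3:5187646-5219957, hg38, GENCODE release 29). EDEM1 stood at 517, 518 and 522 CPM in mono-culture, 476, 513 and 504 CPM with control ECs, 441, 471 and 407 CPM with senECs and 431, 478 and 477 CPM with EGCG-treated senECs. The 3 mono-culture libraries lay above all 9 co-culture libraries. The mean was 440 ± 32.3 CPM with senECs against 519 ± 2.55 CPM (SD, n = 3) in mono-culture, a log2 difference of -0.24 ± 0.09 with an unadjusted p of 0.0182 and an adjusted p of 0.355 by edgeR (0.101 by DESeq2). With EGCG-treated senECs it was -0.17 ± 0.09 and with control ECs -0.06 ± 0.09, and senECs differed from control ECs by -0.18 ± 0.09 (unadjusted p = 0.069). SEL1L, the scaffold of HRD1, stood at 192, 208 and 183 CPM in mono-culture, 176, 187 and 184 CPM with control ECs, 172, 188 and 153 CPM with senECs and 147, 179.7 and 176 CPM with EGCG-treated senECs. Its difference of EGCG-treated senECs from mono-culture was -0.21 ± 0.11 (unadjusted p = 0.057, adjusted p = 0.60, edgeR).

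Of the ATF4 targets, SLC7A5 (chr16:87830023-87869488) stood out by culture. It imports large neutral amino acids such as leucine. SLC7A5 stood at 161, 158 and 192 CPM in mono-culture, 201, 215 and 213 CPM with control ECs, 187, 216 and 229.9 CPM with senECs and 207, 234 and 242 CPM with EGCG-treated senECs. All libraries with control ECs and with EGCG-treated senECs lay above the 3 of mono-culture, and 1 senEC library, number 1, overlapped. The means were 170.0 ± 18.8 CPM in mono-culture, 210.0 ± 7.47 CPM with control ECs, 211 ± 22.0 CPM with senECs and, with EGCG-treated senECs, 228 ± 18.6 CPM (SD, n = 3 each). On the log2 scale the difference from mono-culture was 0.31 ± 0.11 with control ECs (unadjusted p = 0.0102, adjusted p = 0.583, edgeR), 0.31 ± 0.11 with senECs (0.00939 and 0.290) and 0.42 ± 0.11 with EGCG-treated senECs (0.000896 and 0.141). For all co-cultures together it was 0.35 ± 0.09 (unadjusted p = 0.00102, adjusted p = 0.0956). DESeq2 called it with EGCG-treated senECs (adjusted p = 0.0175) and with all co-cultures (0.00967), as did edgeR with no filter on low counts (0.0296 and 0.018). With the library number as a block, edgeR also called both (adjusted p 0.00467 and 0.00191), though the numbers were not taken to pair the libraries. Without the senEC library numbered 1, edgeR called SLC7A5 in all co-cultures together (adjusted p = 0.0426), and leaving out any 1 of the other 11 libraries gave 0.0651 to 0.539. Between co-cultures, EGCG-treated senECs lay 0.11 ± 0.11 above senECs (unadjusted p = 0.31).

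PPP1R15A, which lets translation resume by bringing a phosphatase to eIF2, had the highest share of the library number among the ATF4 targets, 78.3%. PPP1R15A (chr19:48872392-48876057) stood at 66.8, 74.9 and 106 CPM in mono-culture, 79.0, 91.3 and 129.7 CPM with control ECs, 86.2, 87.2 and 147 CPM with senECs and 92.4, 90.8 and 135 CPM with EGCG-treated senECs. In each culture the library numbered 3 or 5 exceeded the other two by at least 1.41 times. Number 3 lay above number 1 by 0.64 ± 0.11 and number 5 by 0.70 ± 0.11 on the log2 scale (adjusted p over the numbers 1.71e-15, edgeR). Against mono-culture the differences were 0.28 ± 0.22 with control ECs, 0.37 ± 0.22 with senECs and 0.36 ± 0.22 with their EGCG-treated counterpart, with unadjusted p from 0.10 to 0.22.

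DDIT4 (REDD1, an inhibitor of mTORC1) stood at 44.1, 51.5 and 70.5 CPM in mono-culture, 42.5, 38.6 and 47.1 CPM with control ECs, 43.5, 44.4 and 59.4 CPM with senECs and 51.2, 37.9 and 60.0 CPM with EGCG-treated senECs. It too was highest in number 3 or 5 throughout (adjusted p over the numbers 4.88e-05, edgeR). Its difference of control ECs from mono-culture was -0.38 ± 0.17 (unadjusted p = 0.0428, adjusted p = 0.754), and the 2 groups overlapped. ATF5, a transcription factor made under stress, ran the other way and was highest in number 1 of all 4 cultures, at 73.9, 58.3 and 64.7 CPM in mono-culture, 82.4, 63.3 and 64.5 CPM with control ECs, 85.9, 73.6 and 83.3 CPM with senECs and 87.8, 72.5 and 62.1 CPM with EGCG-treated senECs. ATF5 had an adjusted p over the numbers of 0.0142, and with senECs it was 0.30 ± 0.13 above mono-culture (unadjusted p = 0.0353, adjusted p = 0.417). PHGDH, the first enzyme of serine synthesis, stood at 93.9, 102 and 78.1 CPM, 83.9, 82.4 and 68.9 CPM, 89.0, 97.9 and 86.6 CPM, and 89.6, 95.8 and 72.8 CPM. It was lowest in number 3 or 5 of each culture (adjusted p over the numbers 0.0279), opposite to PPP1R15A and DDIT4.

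DDIT3 (CHOP, the pro-apoptotic factor of both responses; chr12:57516588-57521737) stood at 19.2, 21.0 and 16.9 CPM in mono-culture, 16.9, 18.1 and 18.1 CPM with control ECs, 18.4, 22.1 and 28.3 CPM with senECs and 16.6, 22.6 and 16.7 CPM with EGCG-treated senECs. The 3 senEC libraries lay above the 3 with control ECs. Their means were 22.9 ± 5.01 and 17.7 ± 0.66 CPM (SD, n = 3), a log2 difference of 0.37 ± 0.16 with an unadjusted p of 0.0318 and an adjusted p of 0.728 by edgeR. EGCG-treated senECs lay 0.30 ± 0.16 below senECs (unadjusted p = 0.079), and the senEC library numbered 5 was the highest of the 12. TRIB3, a pseudokinase that restrains AKT and ATF4, stood at 50.3, 48.2 and 59.7 CPM in mono-culture, 57.7, 54.8 and 62.9 CPM with control ECs, 54.1, 62.8 and 75.3 CPM with senECs and 60.6, 61.3 and 66.0 CPM with EGCG-treated senECs. With senECs TRIB3 was 0.28 ± 0.12 above mono-culture (unadjusted p = 0.0317, adjusted p = 0.405).

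The other ATF4 targets had no unadjusted p under 0.05 in a culture comparison. CHAC1, which degrades glutathione, ranged from 5.06 to 7.92 CPM. PSAT1, of serine synthesis, ranged from 47.4 to 62.0 CPM, and its culture means differed by 1.07 times at most. ASNS ranged from 0.254 to 1.21 CPM, with differences from mono-culture of -0.19 ± 0.55 to -0.86 ± 0.59 that this depth does not resolve. The 3 genes also did not pass over the library numbers, with adjusted p of 0.532, 0.857 and 0.823 (edgeR).

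Among the regulators, XBP1 (chr22:28794555-28800597) stood at 195, 263 and 284 CPM in mono-culture, 209, 257 and 306 CPM with control ECs, 206, 264 and 319 CPM with senECs and 196, 265 and 293 CPM with EGCG-treated senECs. Each culture thus had the same order of numbers, 1 below 2 below 3 or 5, and the 4 culture means lay within 1.06 times of each other. Number 2 lay above number 1 by 0.38 ± 0.08, number 3 by 0.55 ± 0.10 and number 5 by 0.60 ± 0.10 on the log2 scale (adjusted p over the numbers 4.72e-10, edgeR). Its order of the libraries, with number 3 or 5 the highest, was not that of HSPA5 or HSP90B1, with number 2 the highest, and the spliced form of XBP1 was not measured. ATF6 stood at 105, 108 and 110.3 CPM in mono-culture, 98.7, 111 and 132 CPM with control ECs, 104, 109.5 and 135 CPM with senECs and 94.8, 121 and 123 CPM with EGCG-treated senECs, with number 1 the lowest and number 3 or 5 the highest in each (adjusted p over the numbers 0.0214).

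ATF4 (chr22:39519695-39522685) was the regulator with the highest level and stood at 337, 371 and 378 CPM in mono-culture, 353, 336 and 393 CPM with control ECs, 384, 402 and 527 CPM with senECs and 372, 426 and 414 CPM with EGCG-treated senECs. All 3 senEC libraries lay above those of mono-culture, and the senEC library numbered 5 was the highest of the 12. The ATF4 mean with senECs was 438 ± 78.0 CPM against 362 ± 22.0 CPM in mono-culture and 361 ± 29.2 CPM with control ECs (SD, n = 3). The log2 differences were 0.28 ± 0.12 against both (unadjusted p 0.0289 and 0.0267, adjusted p 0.395 and 0.728, edgeR). Those of EGCG-treated senECs were 0.16 ± 0.12 against mono-culture and -0.11 ± 0.12 against senECs (unadjusted p 0.18 and 0.34).

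ERN1, the kinase and nuclease that splices XBP1, stood at 28.7, 26.9 and 34.9 CPM in mono-culture, 25.7, 24.0 and 29.9 CPM with control ECs, 25.7, 27.1 and 20.9 CPM with senECs and 29.2, 21.0 and 32.9 CPM with EGCG-treated senECs. Its difference of senECs from mono-culture was -0.30 ± 0.16 (unadjusted p = 0.075, adjusted p = 0.51, edgeR). EIF2AK3 ranged from 20.9 to 31.7 CPM and differed from mono-culture by -0.20 ± 0.14 with control ECs, by -0.23 ± 0.14 with senECs and by -0.19 ± 0.14 with EGCG-treated senECs (unadjusted p from 0.11 to 0.19). Both sensors were thus measured lower in the mean of each co-culture, but neither passed the test.

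A wider set of 112 genes of these pathways was all tested. Against mono-culture edgeR called 1 lower with control ECs, 1 higher with senECs and 0 with EGCG-treated senECs, and for all co-cultures 1 higher and 1 lower. DESeq2 called 1, 3, 1 and 3 in the same order. Of all 25873 genes edgeR called 37, 80, 55 and 187 in these comparisons, and DESeq2 116, 339, 226 and 439. The unadjusted edgeR p was under 0.05 for 7 genes with control ECs (6.25%, beside 6.52% of all genes), 20 with senECs (17.9%, beside 11%), 8 with EGCG-treated senECs (7.14%, beside 8.58%) and 12 with all co-cultures (10.7%, beside 10.7%). Between co-cultures edgeR and DESeq2 called 0, with 11 at an unadjusted edgeR p of 0.05 when senECs were set against control ECs, and 0 and 3 when EGCG-treated senECs were set against senECs and against control ECs. The genes called by edgeR were 2 factors that belong to the ATF4 network. Of the DESeq2 calls, 1 with senECs and 1 with all co-cultures fell in ER-associated degradation, the rest among genes linked to ATF4. CEBPB, a partner of ATF4 that LPS also induces, stood at 44.2, 49.4 and 47.2 CPM in mono-culture, 61.6, 69.2 and 62.0 CPM with control ECs, 61.0, 69.7 and 88.3 CPM with senECs and 66.1, 66.0 and 79.7 CPM with EGCG-treated senECs, so that every co-culture library was above every mono-culture library. CEBPB rose by 0.64 ± 0.13 with senECs (adjusted p = 0.0317) and by 0.56 ± 0.11 over all co-cultures (adjusted p = 0.0127, edgeR). The second call was lost without any 1 of the mono-culture libraries (adjusted p 0.0915 to 0.0960). The first was lost in the same way (0.121 to 0.142), without the senEC library numbered 2 or 5 (0.110 and 0.180), with only the libraries compared (0.117) and with at least 10 counts in every library (0.0529).

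NUPR1, a small chromatin protein of the stress response, moved the other way. It stood at 7.40, 9.37 and 8.54 CPM in mono-culture, 3.69, 3.82 and 3.83 CPM with control ECs, 5.11, 4.57 and 6.23 CPM with senECs and 5.60, 6.93 and 5.14 CPM with EGCG-treated senECs. NUPR1 fell by 1.16 ± 0.20 on the log2 scale with control ECs (adjusted p = 0.014, edgeR) and by 0.78 ± 0.15 over all co-cultures (adjusted p = 0.0162), and no co-culture library reached the lowest one of mono-culture. Without the mono-culture library numbered 2 or 3 both calls were lost (adjusted p 0.137 and 0.0774 with control ECs, 0.211 and 0.102 over all co-cultures), and the call with control ECs was also lost without any 1 library of control ECs (0.0755 to 0.0992). Over the library numbers, 23 of the 112 genes were called (20.5%, beside 9.61% of all genes and 19.7% of those with a mean of at least 10 CPM), 10 of 39 in ER folding, translocation and glycosylation, 3 of 16 in ER-associated degradation, 8 of 37 linked to ATF4 and 2 of 20 among sensors and eIF2 regulators.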

How the data were processed

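The deposited table holds whole-number read counts, a row per gene symbol and not normalized, from RNA-sequencing of 12 described libraries of THP1 cells. Per the labels the reads were aligned with HISAT2 to hg38, while the counting program and its strand setting are not given in the sources used here. A further 4 columns match no described sample and were not used. All 57169 distinct symbols occur in GENCODE release 29, which gave positions and exon lengths. The 34 genes, the lists and the rule for naming genes were chosen with earlier results of these data known. The rule prints every library for genes called in any comparison, the library numbers included, and, per role, for the highest by FPKM, the 2 with the smallest p against mono-culture and the 1 between co-cultures. Of the wider set it names genes that edgeR called between cultures.

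Counts were tested with edgeR 4.0.16 (quasi-likelihood, TMM, Benjamini-Hochberg adjustment over 25873 genes, adjusted p of 0.05) in R 4.3.3, with 12 libraries and the culture as the term, and with the library number added for the numbers. Standard errors equal the log2 fold change over √F of edgeR's test. Exact permutation of 3 against 3 libraries cannot go below p = 0.1. Alternatives were DESeq2 1.42.0, its size factors, other filters, only the libraries compared, a replicate block and each library left out. Replicates differed by more than sampling noise (chi-square per degree of freedom 10.3 to 38.2). On simulated counts of senECs against control ECs (25037 genes, of which 200 were changed 2-fold), 143 were found by edgeR, with 12 false calls, and 145 by DESeq2, with 20. Figures used Python 3.11.15 and matplotlib 3.10.9.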

Additional observations from a re-analysis of the deposited data

How the results depend on the processing

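With 3 libraries per culture, small differences of single genes cannot be resolved, and ASNS is limited by its counts. Between cultures, 120 of 132 alternative counts of called genes stayed at the 0 of the main test. Fold changes of single genes were recomputed for a part of the genes and comparisons only, among them those called. None of these changed sign, which was likely beforehand for the genes called and says nothing of the genes not recomputed. DESeq2 called 1 gene with EGCG-treated senECs and 1 with all co-cultures against mono-culture (SLC7A5 both times), beside 226 and 439 of all 25873 genes. With no filter on low counts edgeR called 1 and 2 (SLC7A5, and PPP1R15A in the latter), beside 377 and 582 of 34767 genes. Leaving out each library gave 0 to 1 with all co-cultures against mono-culture. The causes were not tested.

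Libraries with the same number correlated in their deviations by 0.0272 to 0.497 over 25873 genes (number 2 by 0.0272 to 0.267), above 0.1 in 10 of 14 pairs, and 9 of 12 libraries correlated best with their own number, so the numbers were not taken to pair them. With a replicate block, edgeR called 2 genes with control ECs against mono-culture (SLC7A5 and DDIT4), beside 469 of all 25873 genes. Also against mono-culture, it called 0 with senECs, beside 709, and 1 with EGCG-treated senECs, beside 424. With all co-cultures it called 2 (SLC7A5 and PPP1R15A), beside 824. With the block and the numbers 3 and 5 joined it called 1 with control ECs, beside 400 of all genes. It then called 4 with senECs (ATF4, ATF5, PPP1R15A and SLC7A5), beside 1407 of all genes. With EGCG-treated senECs it called 2, beside 782, and with all co-cultures 2, beside 1243.

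Of 17 alternatives, 15 left the count of genes that differ over the library numbers within 1.5 times of 16, and leaving out libraries gave 10 to 26. Of 528 alternative medians of the role lists, 46 had the opposite sign to the main one. A total of 517 moved by less than the SD between libraries, including every one that changed the tool, the filter or the block. For the chaperones and for the sensors and transcription factors that SD (0.18 and 0.13) exceeds the medians themselves, so this count does not show that they were stable. With EGCG-treated senECs against mono-culture, leaving out libraries moved the chaperone median between -0.066 and 0.172. Leaving out libraries moved the ATF4 targets between -0.0571 and 0.103 with control ECs, 0.0531 and 0.276 with senECs against mono-culture, 0.0213 and 0.230 for senECs against control ECs and -0.113 and 0.105 for EGCG-treated senECs against senECs, with the extremes mostly at senECs without number 1 or 5. The sensors and transcription factors moved between -0.0731 and 0.185 with senECs, -0.119 and 0.166 with EGCG-treated senECs and -0.0882 and 0.106 with all co-cultures, all on the log2 scale.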
